A study of Mus musculus with 2 samples.

Results

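The genes described here encode the protein kinase complexes that carry signals from innate immune receptors to the transcription factors NF-kB and IRF3. They were taken by their listed gene symbols: Ikbkb, Chuk, Ikbkg, Tab2, Ikbke, Tbk1, Tank, Malt1, Bcl10 and Card9. These are 10 of the 55536 annotated genes in the deposited gene tables, and all 10 were found. RNA came from the nucleoplasm, that is, the RNA of the nucleus apart from chromatin (the fraction field reads nucleus), of primary macrophages grown from the bone marrow of C57BL/6J mice. The cells had received Lipid A, the part of bacterial lipopolysaccharide that Toll-like receptor 4 recognises, at 100 ng/ml for 60 min. Ribosomal RNA was removed before sequencing, and the 2 libraries, biological replicates of each other, form 1 group. The starting amount was 1 µg for replicate 1 and 500 ng for replicate 2. Both carry the same donor label, so their spread may be smaller than that between animals, and sex and age were not collected. No unstimulated library, other time or other fraction was analysed here, so the values are levels after Lipid A and not responses to it.

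In the classical pathway, the kinase TAK1 is held by TAB adaptors on ubiquitin chains and activates the IKK complex. That complex joins the kinases IKK-alpha and IKK-beta to the scaffold NEMO, and it marks the inhibitors of NF-kB for destruction. The related kinases TBK1 and IKK-epsilon bind adaptors such as TANK and phosphorylate IRF3, which turns on the interferon-beta gene. CARD9, BCL10 and MALT1 assemble into filaments below C-type lectin receptors such as Dectin-1, and MALT1 is both a scaffold for IKK activation and a protease.

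The gene tables held 21256531 expected counts in replicate 1 and 15643649 in replicate 2, where an expected count is an estimated number of reads that need not be whole. Levels are given as TPM, a share of the library corrected for transcript length. TPM was lower in replicate 2 across the genome, with a median log2 ratio of replicate 2 over replicate 1 of -0.42 over the 8622 protein-coding genes at 1 TPM or more in both libraries. Mitochondrial transcripts made up 5.10% of all TPM in replicate 1, and 6.17% in replicate 2. All 8 macrophage markers examined stood at 10 TPM or more, and their summed TPM was 2848 in replicate 1 and 2575 in replicate 2. The 4 T cell markers, Cd3d, Cd3e, Cd3g and Trac, had 0 counts in both gene tables, which allows up to 3 counts each, although the second transcript table listed Cd3d at 2.80 TPM in replicate 1 and 4.07 in replicate 2. In the gene tables, summed TPM was at most 0.37 for the B cell list, 1.88 for the neutrophil list, 2.31 for the dendritic cell list and 0.22 for the fibroblast list. In the second transcript table the largest sums were 1.32 for the B cell list, 1.33 for the neutrophil list, 1.88 for the dendritic cell list and 0.71 for the fibroblast list. In bulk RNA, fewer cells of a type and less RNA per cell cannot be told apart.

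The 10 genes spanned a 118-fold range of TPM in replicate 1 and a 131-fold range in replicate 2, from Ikbkg at the bottom to Malt1 at the top. Their median log2(TPM + 1) was 5.84 ± 0.32 (SD, n = 2), and that of the 8622 protein-coding genes was 3.04 ± 0.24 (SD, n = 2). Of the 10, 9 stood at 10 TPM or more in both libraries, as did 14.4% of the 22015 protein-coding genes of the nuclear genome. Malt1, Ikbke and Tank stood at 100 TPM or more in both, as did 1.39% of those genes. In the order of mean TPM, 6 of the 9 neighbouring pairs stood in the same order in both libraries. Ikbke and Tank, Ikbkb and Tab2, and Bcl10 and Chuk changed places between the libraries. The TPM values of Tbk1 and Ikbkb also overlapped between the libraries, although Tbk1 was the higher within each by TPM. By CPM, which is not corrected for length, Tbk1 minus Ikbkb was -0.20 on the log2(CPM + 1) scale.

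**Figure D1:**
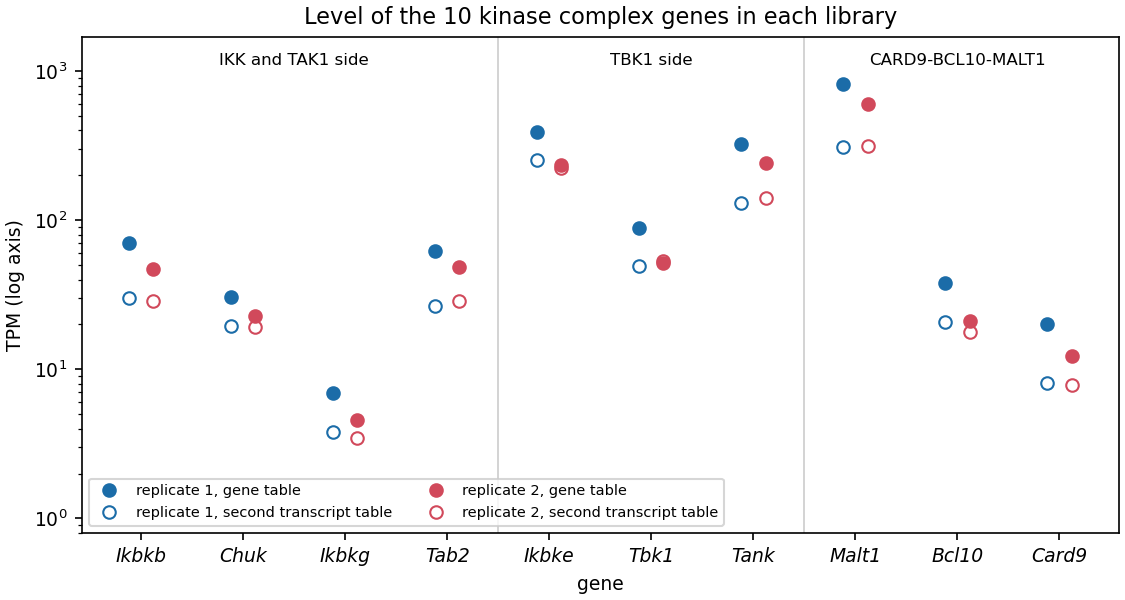
TPM of each gene on a log axis, with replicate 1 in blue and replicate 2 in red. Filled points are from the gene table and open points from the second transcript table summed per gene; Malt1 lies highest and Ikbkg lowest in both tables.

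Ikbkb encodes IKK-beta, the kinase that does most of the phosphorylation of the NF-kB inhibitor IkB-alpha in the classical pathway. It lies on the minus strand of chromosome 8 (mm10, chr8:22659212-22706589). Its TPM was 70.8 in replicate 1 and 47.4 in replicate 2, from 4509 and 3092 expected counts. Chuk encodes IKK-alpha, which also drives the alternative pathway through p100, and lies on the minus strand of chromosome 19 (mm10, chr19:44073335-44107480). Its TPM was 30.7 in replicate 1 and 22.9 in replicate 2, from 1508 and 1137 expected counts. The lower Ikbkb value exceeded the higher Chuk value, and within a library Ikbkb stood 2.31-fold above Chuk in replicate 1 and 2.07-fold above it in replicate 2. The size of the gap depended on the measure: it was 1.54-fold and 1.49-fold in the second transcript table, and 2.99-fold and 2.72-fold by CPM.

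Ikbkg encodes NEMO, the scaffold through which the IKK kinases bind ubiquitin chains. It lies on the plus strand of chromosome X (mm10, chrX:74393290-74453854). It was the lowest of the 10 genes, with 6.94 TPM in replicate 1 and 4.59 in replicate 2, from 565 and 411 expected counts. By TPM it ranked 4747th of the 22015 protein-coding genes in replicate 1 and 5114th in replicate 2. Of the 8622 at 1 TPM or more in both libraries, 55.1% stood at or above its TPM in replicate 1 and 59.3% in replicate 2. On the log2(TPM + 1) scale the difference Ikbkg minus Chuk was -2.04 ± 0.07 and Ikbkg minus Ikbkb was -3.15 ± 0.04 (SD, n = 2).

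Part of the Ikbkg locus is shared with another gene. G6pdx, which encodes glucose-6-phosphate dehydrogenase, runs on the opposite strand, and 19.7 kb of its span lies within the span of Ikbkg. G6pdx drew 440 expected counts in replicate 1 and 373 in replicate 2, close to those of Ikbkg itself. Of the 3080 bases of G6pdx exons, 418 lie in exons annotated to Ikbkg. The strand setting of the counting is not given in the sources used here, so reads in those bases cannot be told apart and the Ikbkg value is uncertain to that extent.

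RefSeq lists 4 start sites for Ikbkg, and its TPM was concentrated on the one farthest downstream. The 4 transcripts that begin within 250 bases of that start held 4.68 TPM in replicate 1 and 3.03 in replicate 2, or 67.3% and 66.0% of the gene. The second start, which lies inside the G6pdx span, held 19.0% and 24.0%. Transcripts of the first start were at 0 in both libraries, and those of the third held 12.2% in replicate 1 and 2.61% in replicate 2. In the second transcript table the fourth start held 54.0% in each library.

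Tab2 encodes an adaptor that ties TAK1 to lysine-63 ubiquitin chains and lies on the minus strand of chromosome 10 (mm10, chr10:7905653-7956230). Its TPM was 61.7 in replicate 1 and 48.6 in replicate 2, from 4357 and 3226 expected counts. Those values overlapped the values of Ikbkb. The genes of its partners were lower: Map3k7, which encodes TAK1 itself and was picked out after its values were seen, had 21.4 TPM in replicate 1 and 11.9 in replicate 2, and Tab1, which encodes another TAK1 adaptor, had 1.41 and 1.09.

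Ikbke encodes IKK-epsilon and lies on the minus strand of chromosome 1 (mm10, chr1:131254343-131279606). Its TPM was 390 in replicate 1 and 235 in replicate 2, from 17022 and 10190 expected counts. Tbk1, the gene of its close relative, lies on the minus strand of chromosome 10 (mm10, chr10:121546455-121586787). Its TPM was 88.2 in replicate 1 and 52.0 in replicate 2, from 4241 and 2498 expected counts. Every Ikbke value lay above every Tbk1 value. Tbk1 stood at 0.226 times the TPM of Ikbke in replicate 1 and at 0.221 times in replicate 2. The difference was -2.14 ± 0.02 on the log2(TPM + 1) scale in the gene table (SD, n = 2). In the second transcript table it was -2.21 ± 0.20 (SD, n = 2), at 0.193 times in replicate 1 and 0.236 times in replicate 2. On protein-coding transcripts alone Tbk1 stood at 0.354 and 0.379 times the TPM of Ikbke.

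Tank encodes an adaptor that binds TBK1, IKK-epsilon and TRAF proteins. It lies on the plus strand of chromosome 2 (mm10, chr2:61578585-61654171). Its TPM was 326 in replicate 1 and 243 in replicate 2, from 13624 and 10050 expected counts. Tank lay 3.70-fold above Tbk1 in replicate 1 and 4.67-fold above it in replicate 2, but 2.64-fold above it in each library of the second transcript table. Against Ikbke it was the lower gene in replicate 1 and the higher in replicate 2 of the gene table. In the second transcript table Tank was the lower in both, at 0.510 and 0.622 times the TPM of Ikbke.

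The TPM of Tank was divided between its annotated start regions. Transcripts that begin within 250 bases of the upstream RefSeq starts held 134 TPM in replicate 1 and 91.4 in replicate 2. Those of the downstream starts held 133 in replicate 1 and 117 in replicate 2. As shares of the gene, the upstream region held 41.1% and 37.6%, and the downstream region 40.8% and 48.3%, with the rest on transcripts that begin elsewhere. The second transcript table gave 42.8% and 38.4% for the upstream region and 50.1% and 49.6% for the downstream region.

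The windows of both start regions are shown because the data divide the gene between them. Each covers 250 bases before a RefSeq start and 50 after it, on the plus strand of GRCm38.p6. Both strands were searched for GGNNTTTCC, a form of the NF-kB site in which N is any base, and capitals mark the match. The upstream window is chr2:61578307-61578606 and the downstream window is chr2:61592847-61593146.
Tank upstream: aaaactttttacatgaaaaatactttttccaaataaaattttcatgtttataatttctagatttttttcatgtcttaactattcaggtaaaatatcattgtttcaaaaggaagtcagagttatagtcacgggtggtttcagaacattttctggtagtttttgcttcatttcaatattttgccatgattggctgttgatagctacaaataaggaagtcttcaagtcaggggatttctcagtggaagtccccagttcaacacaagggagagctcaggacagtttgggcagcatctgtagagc
Tank downstream: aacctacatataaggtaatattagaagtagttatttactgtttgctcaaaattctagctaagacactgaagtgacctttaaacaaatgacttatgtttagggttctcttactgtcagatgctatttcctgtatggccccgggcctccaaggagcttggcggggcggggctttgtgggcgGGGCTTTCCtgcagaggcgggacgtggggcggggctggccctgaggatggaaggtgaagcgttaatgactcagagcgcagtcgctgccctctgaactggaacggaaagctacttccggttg
The match stands in the downstream window at position -71 from the start. The upstream window holds no match to these letters. Other forms of the NF-kB site were not searched for, so a site with other letters could lie in either window. Of the 10 genes, 8 matched RefSeq promoter entries, 15 entries in all, and Ikbkb and Malt1 did not. The downstream Tank entries, which overlap, were the only ones among the 15 with a match, and 5.82% of 32851 promoter windows of the same length hold one. A match describes the letters and does not show binding.

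**Figure D2:**
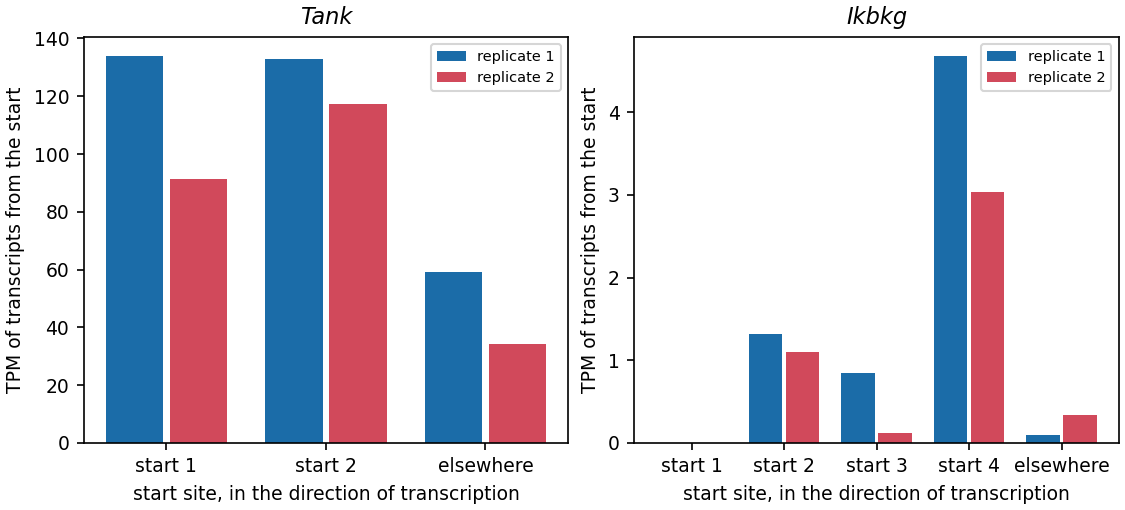
TPM of the transcripts that begin within 250 bases of each RefSeq start region of Tank (left) and Ikbkg (right), numbered in the direction of transcription, with replicate 1 in blue and replicate 2 in red. Tank is divided between its start regions, and start 4 holds the tallest bars of Ikbkg; Ikbkg start 1 is at 0.

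MALT1, the only paracaspase of mammals, cleaves negative regulators of NF-kB and of mRNA stability. Malt1 was the highest of the 10 genes, with 821 TPM in replicate 1 and 603 in replicate 2, from 59279 and 39664 expected counts. By TPM it ranked 19th of the 22015 protein-coding genes in replicate 1 and 25th in replicate 2. It stood 2.11-fold above Ikbke in replicate 1 and 2.57-fold above it in replicate 2.

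The partners of MALT1 in the filament were far lower. Bcl10, which encodes the adaptor that polymerises and binds MALT1, had 37.9 TPM in replicate 1 and 21.1 in replicate 2, from 1255 and 707 expected counts. Card9, which encodes the scaffold that starts the filament in myeloid cells, had 20.2 TPM in replicate 1 and 12.3 in replicate 2, from 678 and 432 expected counts. Malt1 lay 21.7-fold above Bcl10 in replicate 1 and 28.5-fold above it in replicate 2. The size of this gap depended on the measure: it was 15.1-fold and 17.6-fold in the second transcript table, 47.2-fold and 56.1-fold by CPM, and 9.38-fold and 10.1-fold on protein-coding transcripts alone. Card9 was the lower of the pair with Bcl10 in both libraries. Card9 minus Bcl10 was -0.81 ± 0.10 on the log2(TPM + 1) scale (SD, n = 2), and no Card9 value reached the lower Bcl10 value in the gene table. The difference was -1.18 ± 0.12 in the second transcript table and -0.29 ± 0.08 on protein-coding transcripts alone (SD, n = 2 each). On coding transcripts the values overlapped between the libraries, with Card9 at 15.5 TPM in replicate 1 and Bcl10 at 12.7 in replicate 2.

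Bcl10 lies on the plus strand of chromosome 3 (mm10, chr3:145922804-145934356) and Card9 on the minus strand of chromosome 2 (mm10, chr2:26352176-26360918). The noncoding gene Gm13562 overlaps Card9 on the opposite strand, and it drew 3 expected counts in replicate 1 and 4 in replicate 2. Malt1 lies on the plus strand of chromosome 18 (mm10, chr18:65430938-65479067), with no overlapping annotated gene.

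A large part of these levels was assigned to transcripts that are not annotated as protein-coding. GENCODE gives the 10 genes 89 transcripts, of which 49 are of another type and 31 of those are called retained intron. The median share of TPM on noncoding types over the 10 genes was 42.9% in replicate 1 and 38.1% in replicate 2. Over the 7263 protein-coding genes at 1 TPM or more with at least 1 such transcript, it was 33.0% and 32.4%. Ikbkb, Malt1, Ikbke and Chuk had at least 50% of their TPM there in both libraries, that is 4 of the 10, and 22.6% of the 7263 genes did. By the second transcript table, it was 5 of the 10 and 38.4% of the 7263 genes. The medians there were 55.3% and 54.7% for the 10 genes, and 44.1% and 46.7% for the 7263.

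Ikbkb had the highest share, 79.8% in replicate 1 and 84.5% in replicate 2, and Malt1 followed at 77.2% and 78.7%. Ikbke had 60.6% and 62.7%, and Chuk 57.7% and 52.8%. In all 4 the retained-intron type made up most of it. Bcl10 had 47.3% and 39.96%, Tbk1 38.5% and 36.1%, and Tank 38.4% and 35.2%, where Tank has no retained-intron transcript and the share was on processed transcripts. At the low end stood Tab2 with 22.0% and 23.3%, Card9 with 22.99% and 13.2%, and Ikbkg with 10.4% and 8.50%.

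Short transcripts weigh more in TPM than in reads, and by expected counts the picture was uneven. Ikbkb had 77.3% of its counts in replicate 1 and 82.6% in replicate 2 on noncoding types, and Malt1 had 60.8% and 61.6%. Ikbke had 44.8% and 48.4% by counts, and Chuk 31.1% and 27.7%, both under the 50% line. Tab2 had only 3.51% and 3.61% by counts.

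**Figure D3:**
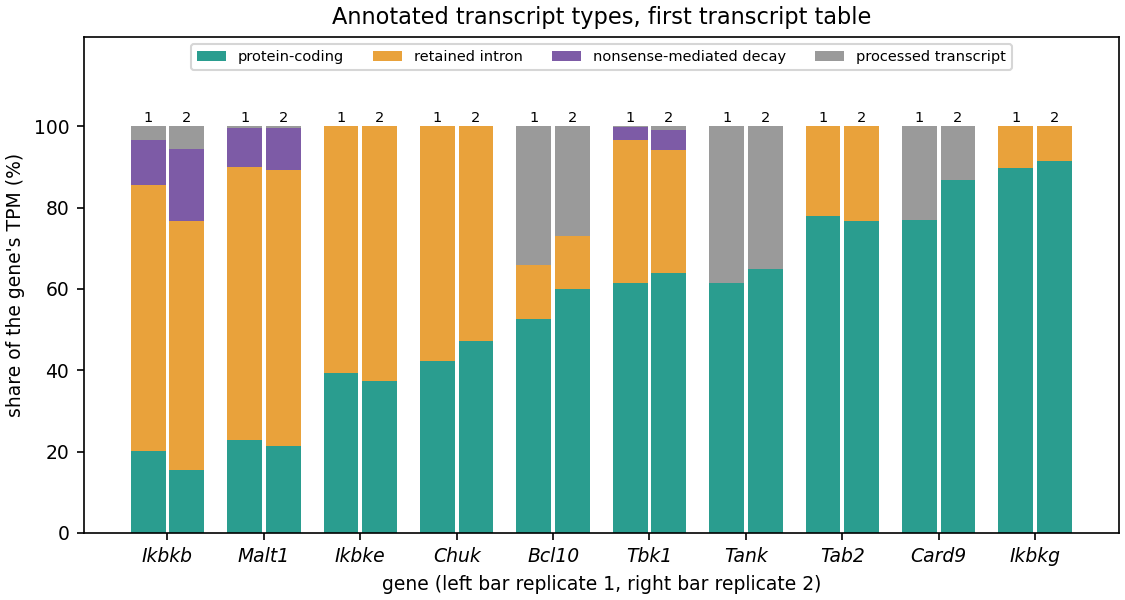
Share of each gene's TPM by annotated transcript type, in percent, with a bar for each replicate (1 on the left, 2 on the right). Genes run from the highest noncoding share, Ikbkb, to the lowest, Ikbkg; green is protein-coding.

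On protein-coding transcripts alone, a quantity chosen after the data were seen, the order of the genes was different. Tank then stood highest, with 201 TPM in replicate 1 and 157 in replicate 2. Malt1 had 187 and 129, and Ikbke 153 and 87.7. Tank minus Ikbke on coding transcripts was 0.61 ± 0.32 on the log2(TPM + 1) scale (SD, n = 2). On the coding transcripts of the second table it was -0.07 ± 0.24, within the spread between the libraries, and on all transcripts of that table -0.82 ± 0.20 (SD, n = 2 each).

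The IKK kinases drew level on the same measure. The coding TPM of Ikbkb was 14.3 in replicate 1 and 7.36 in replicate 2, and that of Chuk was 13.0 and 10.8. Ikbkb was the higher in replicate 1 and the lower in replicate 2. Ikbkg had 6.23 and 4.20 and came closer to its partners. Coding transcripts held 89.6% and 91.5% of its TPM in the first table, but 72.8% and 76.0% in the second. Tbk1 stood further above Ikbkb, by 3.80-fold in replicate 1 and 4.51-fold in replicate 2, than on all transcripts of the gene table, where Tbk1 minus Ikbkb was 0.22 on the log2(TPM + 1) scale.

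The transcripts of Malt1 show where its level was placed. The full-length coding transcript Malt1-201 had 182 TPM in replicate 1 and 127 in replicate 2. Malt1-213, a retained-intron transcript that begins in exon 1 and ends inside intron 2, had 160 and 116. Malt1-206, a 556-base transcript over exons 7 and 8 and parts of introns 6 and 8, had 145 and 101.

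Malt1-203, a single unspliced exon of 6404 bases that keeps introns 6 and 7 whole, had 94.1 and 63.5. It took 14208 of the expected counts of the gene in replicate 1 and 9122 in replicate 2, against 22717 and 15063 on Malt1-201. The nonsense-mediated decay transcripts were not placed alike by the 2 transcript tables. Malt1-211 had 62.5 TPM in replicate 1 and 52.3 in replicate 2 in the first table and 0 and 3.13 in the second, while Malt1-212 had 10.7 and 8.45 in the first and 38.5 and 38.0 in the second.

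**Figure D4:**
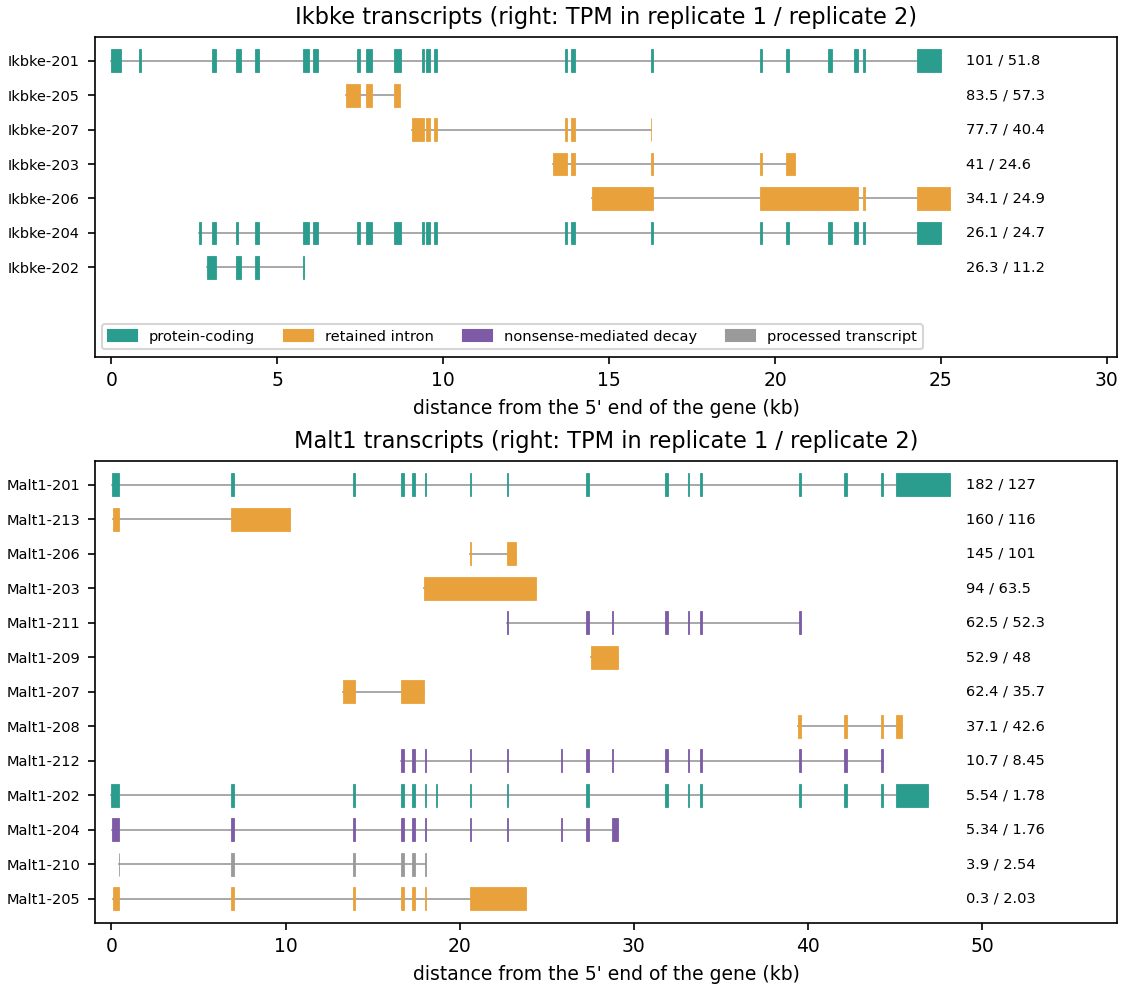
Annotated transcripts of Ikbke (top) and Malt1 (bottom) by distance from the 5' end of the gene in kb, with exons as boxes coloured by transcript type and the TPM of each replicate at the right. Malt1-203, Malt1-205, Malt1-207 and Ikbke-206 cover whole introns. The other retained-intron transcripts cover introns only in part, and Malt1-209 lies wholly inside intron 9.

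Ikbke was divided in a similar way. The full-length coding transcript Ikbke-201 had 101 TPM in replicate 1 and 51.8 in replicate 2. The short retained-intron transcripts Ikbke-205 and Ikbke-207 had 83.5 and 57.3, and 77.7 and 40.4. In the second transcript table both stood above Ikbke-201, which had 36.8 and 26.8 there, while Ikbke-205 had 55.5 and 57.6 and Ikbke-207 had 69.8 and 59.4.

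Most of the noncoding transcripts do not hold a whole intron. Of the 49, 8 keep at least 1 complete intron of the main coding transcript of their gene, 38 cover an intron only in part, and 3 do neither. Transcripts that keep a whole intron held 26.6% of Ikbkb TPM in replicate 1 and 25.6% in replicate 2, including the coding transcript Ikbkb-202, which keeps intron 21. The same share was 19.1% and 16.8% for Malt1, 8.76% and 10.6% for Ikbke, 9.49% and 12.1% for Tab2, and 5.55% and 4.50% for Tank. No annotated transcript of Chuk, Ikbkg, Tbk1, Bcl10 or Card9 keeps a whole intron, so such RNA from these genes has no entry of its own.

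Examples from Ikbke and Ikbkb show what the kept introns join. Ikbke-206 keeps introns 17, 18 and 19 of the 21 of Ikbke-201, and it had 34.1 TPM in replicate 1 and 24.9 in replicate 2. Ikbkb-211 keeps introns 12 and 13 of the 21 of Ikbkb-201, and it had 7.90 and 5.14. The sequences are taken from the GENCODE M21 sequences of these transcripts and not from the libraries, 5' to 3' on the minus strand of mm10. They hold 15 bases on each side of the exon edge, and capitals mark the GT and AG at the ends of the intron. Intron 17 of Ikbke spans 722 bases at chr1:131259284-131260005, and intron 12 of Ikbkb spans 1900 bases at chr8:22669731-22671630.
Ikbke intron 17, exon into intron: ccacaagctggataaGTgagtggtcccctt
Ikbke intron 17, intron into exon: tctctgtccttccAGggtaaatttcagtca
Ikbke, spliced: ccacaagctggataaggtaaatttcagtca
Ikbkb intron 12, exon into intron: gtgtcagctgtatccGTaagtgcatcattt
Ikbkb intron 12, intron into exon: actgtttgtttccAGttcaggagcccaagc
Ikbkb, spliced: gtgtcagctgtatccttcaggagcccaagc
The exon bases on both sides are coding in Ikbke-201 and Ikbkb-201.

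Antisense genes lie over Ikbke and Ikbkb. Gm28914 overlaps Ikbke at chr1:131259507-131260553, over part of intron 17, and drew 165 expected counts in replicate 1 and 138 in replicate 2. Gm28913, also opposite Ikbke, had 273 and 171 counts and a TPM of 69.7 and 48.8. In the second transcript table Gm28913 had 76.0 TPM in replicate 1 and 134 in replicate 2. The gene-table counts of both were small beside the 17022 and 10190 of Ikbke. Exons annotated to Ikbke hold 159 of the 667 exon bases of Gm28914 and 65 of the 364 of Gm28913. Gm15346 opposite Ikbkb had 4 and 3 counts, and its exons share no base with those of Ikbkb. Overlaps were found for 4 of the 10 genes, and reads in shared exon bases cannot be told apart without the strand setting.

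A few transcripts were placed differently by the tables. The nonsense-mediated decay transcript Ikbkb-203 had 0 TPM in replicate 1 and 3.72 in replicate 2 in the first table, and the interval deposited with it reached 3.02 in replicate 1 and ran from 0.012 to 6.14 in replicate 2. The intervals overlap, and the second table listed it near 0 in both libraries. For Tbk1 the coding transcript Tbk1-201 had 54.0 and 33.2, and the short transcript Tbk1-206 was at 0.24 and 0 in the first table but at 4.19 and 11.8 in the second.

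The replicates were compared after scaling the counts by TMM, which sets the bulk of genes level between libraries. None of the 10 genes differed by more than 2-fold between the libraries, and 1.18% of 10088 genes with a mean count of at least 50 did. The median log2 ratio of replicate 2 over replicate 1 was -0.07 over the 10 genes and 0.00 over all. Bcl10 had the lowest ratio at -0.33, followed by Tbk1 at -0.27 and Ikbke at -0.25. Chuk had the highest at 0.09, and 6 of the 10 ratios were below 0 and 4 above. In the second transcript table all 10 were below 0, with a median of -0.12, where the median over 16382 genes was 0.01. Sign aside, the median log2 ratio there was 0.12 over the 10 genes and 0.20 over the 16382.

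**Figure D5:**
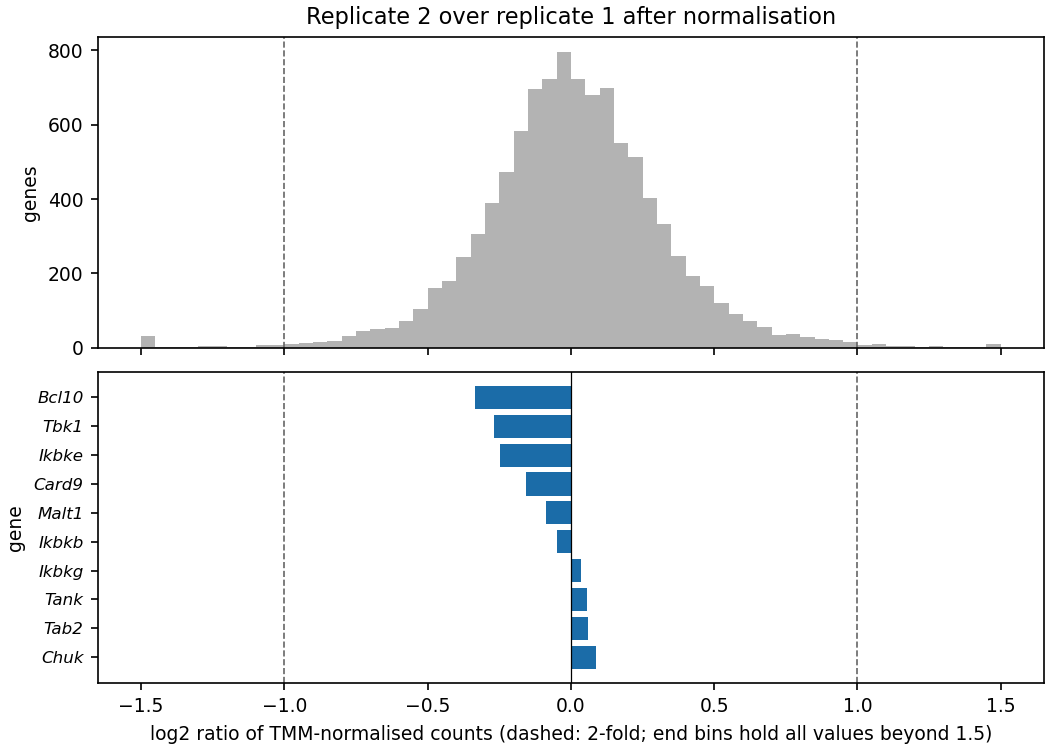
Log2 ratio of replicate 2 over replicate 1 after TMM, for 10088 genes as a histogram (top) and for each of the 10 genes as a bar (bottom), with dashed lines at 2-fold. All bars lie between -0.33 and 0.09.

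The wider pathway was read from 8 lists with 50 genes that are not among the 10. Of the 50, 48 stood at 1 TPM or more in both libraries, 34 at 10 or more and 5 at 100 or more. Of the 22015 protein-coding genes, 8622 stood at 1 TPM or more in both, 14.4% at 10 or more and 1.39% at 100 or more. None of the 48 whose ratio could be taken differed by more than 2-fold between the libraries, and 1.18% of 10088 genes did. The lists were chosen by function, and the highest and lowest gene of each by mean TPM is given.

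Upstream of the kinases, levels in 3 of the lists were below those of Ikbke, Tank and Malt1. Among 12 genes of the TAK1 complex and its ubiquitin enzymes, Ube2n, which encodes the enzyme UBC13 that builds lysine-63 chains, was highest with 49.95 TPM in replicate 1 and 59.1 in replicate 2. Among 7 adaptors upstream of TBK1, Optn, which encodes the ubiquitin-binding protein optineurin, was highest with 67.7 and 40.1, and Mavs, the adaptor of RNA sensing, was lowest by mean TPM with 3.07 and 2.32. Tmem173, the gene of STING, was close to it with 2.66 and 4.68. Among 6 other kinases that feed the IKK complex, Irak2 was highest with 107 and 78.1, and Irak4, the first kinase of the Toll-like receptor complex, was lowest by mean TPM with 4.30 and 3.52, although Map3k14, which encodes NIK, was the lower of the pair in replicate 2.

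On the CARD side, Syk, the kinase below Dectin-1, had 382 TPM in replicate 1 and 250 in replicate 2, the highest of 7 genes. Card10, a scaffold of non-immune cells, drew 4 expected counts in replicate 1 and 1 in replicate 2, at a TPM of 0.05 and 0.01. Card9 therefore stood above Card10 within each library. Among the chaperones of these kinases, Hsp90ab1 had 64.7 and 51.5, and Cdc37, which loads kinases onto HSP90, had 16.3 and 10.1.

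Genes of the substrates reached the highest levels of the pathway. Nfkbia, which encodes IkB-alpha, the main target of IKK-beta, had 721 TPM in replicate 1 and 377 in replicate 2. Rela, the gene of the p65 subunit, was the lowest of the 8 IKK substrates in the gene table with 46.6 and 32.8. In the second transcript table Rela had 31.8 and 36.4, above Nfkbib at 28.5 and 27.4. Tnfaip3, which encodes A20, a brake on NF-kB that MALT1 cleaves, had 840 and 658, at about the level of Malt1 in the gene table. In the second transcript table Tnfaip3 had 456 and 494, and Malt1 had 312 and 315. Cyld, the gene of another deubiquitinase that MALT1 cleaves, had 10.01 and 6.43. Among 4 substrates of TBK1 and IKK-epsilon, Tank was highest and Irf7, an interferon regulatory factor, lowest with 48.0 and 26.4.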

How the data were processed

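Total RNA of the nucleoplasmic fraction was sequenced in 2 libraries of 1 group. Each library has 3 deposited tables, namely 1 of genes and 2 of transcripts. They were made on mm10 with GENCODE M21, per the deposited notes. Neither the aligner and quantifiers nor their versions and strand handling can be stated (not given in the sources used here). Expected counts are estimated reads per gene or transcript, not normalised, as deposited by the authors. TPM values, per effective length and scaled per library, were deposited by the authors too, as were the interval bounds of TPM, whose level is not stated. The second table was summed per gene here. The 10 genes and all lists were chosen with earlier results of these data known.

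Library sizes used annotated genes only, with totals of 21115765 (replicate 1) and 15607391 (replicate 2) expected counts; the other entries held 0.662% and 0.232% of the totals. Expected counts were rounded and scaled by TMM (edgeR 4.0.16, run in R 4.3.3) for genes with a mean count of at least 50, and 0.5 was added before ratios. DESeq2 1.42.0 size factors were an alternative. Levels were also summarised as log2(TPM + 1), where a pseudocount of 1 makes differences of low genes smaller. Partner differences were taken within a library for 10 pairs, as first gene minus second. A single group allows no test between groups, so no p-value is printed. Counts of reads are not independent molecules. Named were the 10 genes, the highest and lowest gene of each list by mean TPM, and every gene that overlaps one of the 10; Map3k7, Tmem173, Map3k14 and the transcripts named were chosen after their values were seen. Promoter windows are from RefSeq (GRCm38.p6), and splice site sequences from the GENCODE M21 transcript sequences. Tables and figures used Python 3.11.15, numpy 2.4.6, pandas 2.3.3 and matplotlib 3.10.9.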

Additional observations from a re-analysis of the deposited data

How the results depend on the processing

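No paired analysis was possible because the libraries form 1 group. The median log2(TPM + 1) of the 10 genes was 4.88 in the second transcript table, 7.58 as log2(CPM + 1), 8.01 after rescaling TPM over protein-coding genes, 4.72 on protein-coding transcripts alone and 3.69 on those of the second table. Under each of these the median of the 8622 genes was lower than that of the 10. The second table lay below the first by a median log2 ratio of -1.07 in replicate 1 and -0.53 in replicate 2, so a level depends on the table. The number of the 10 at 10 TPM or more in both libraries was 9, but 8 in the second table and 5 on its protein-coding transcripts alone. The share over all protein-coding genes, 14.4%, was taken for the gene table only. Whether the drop in number is particular to the 10 was therefore not tested. The noncoding share averaged 40.5% in the first table, 55.0% in the second, where the medians over the 7263 genes were 44.1% and 46.7%, and 26.3% by expected counts. The median replicate ratio of the 10 genes was -0.59 as a log2 TPM ratio without further normalization, where the median over 10085 genes was -0.43. Of the partner differences, Tbk1 minus Ikbkb became -0.20 as CPM, but 0.78 in the second table and 1.94 on protein-coding transcripts alone. On protein-coding transcripts alone Ikbkb minus Chuk became -0.18 and Tank minus Ikbke 0.61. In the second table all 10 differences moved by more than their SD over the 2 libraries of the gene table. None turned round, and Tank minus Ikbke was -0.82. That limit can be very small: Tbk1 minus Ikbke went only from -2.14 to -2.21. Its SD was 0.02 in the gene table and 0.20 in the second. Tank minus Ikbke ranged from -0.26 to 0.048 when 1 library was left out. The cause was not tested. The settings on protein-coding transcripts were chosen after seeing the data. With 2 libraries an SD is itself imprecise, and Ikbkg and Card9 rest on the fewest counts.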
